A study of Mus musculus with 6 samples.

Results

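A set of 9 genes of the interleukin-1 (IL-1) family was followed here by symbol, and all 9 were found among the 40879 gene symbols of the count files. They comprise the ligand genes Il1a, Il1b and Il33, the antagonist gene Il1rn, the receptor genes Il1r1, Il1rap and Il1rl1, the decoy receptor gene Il1r2 and the inhibitory receptor gene Sigirr. The members were listed by name, and the genes of interleukin-18 were not among them. Of the 9, 8 had a count in any library, and 6 passed the filter on low counts and were tested (Il1a, Il1b, Il1rn, Il1r1, Il1rap and Sigirr).

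The libraries came from primary hepatic stellate cells of wild-type male mice, kept for 24 h with vehicle (3 libraries) or with APB-R3 (3 libraries). APB-R3 is an engineered IL-18 binding protein, which is a secreted protein that holds IL-18 away from its receptor, and the series asks whether it attenuates stellate cell activation. The dose is written as 150 µg/ml in one label and as 150 µg/kg in another, so its unit is open here. The sources used here do not give the strain, the age or the number of animals behind a library. They also do not say whether replicates were separate animals or cultures, so p-values speak of the spread among these 6 libraries only, and that spread may be technical.

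IL-1 alpha and IL-1 beta bind the same receptor, encoded by Il1r1, which then recruits the accessory chain encoded by Il1rap and signals through MYD88 and IRAK kinases to NF-kB and MAP kinases. IL-1 beta is made as a precursor that caspase-1 cuts, whereas the IL-1 alpha precursor is already active. The receptor antagonist occupies the receptor without recruiting the accessory chain, and the receptor encoded by Il1r2 binds ligand but lacks a signalling domain. IL-33 is a nuclear alarmin whose receptor, ST2, is encoded by Il1rl1 and uses the same accessory chain, and the product of Sigirr dampens signalling of the family. In the liver, Kupffer cells are a known source of IL-1 beta, and stellate and endothelial cells are known to respond to it.

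The libraries held between 8323809 counts (APB-R3 replicate 1) and 10792531 counts, each count being 1 read near the 3' end of a transcript. Levels are CPM, the counts of a gene scaled to a common library total, on library sizes scaled by the trimmed mean of M values (TMM). Because a 3' read is taken once per transcript, these levels are not divided by length. The cultures were not stellate cells alone. The 14 liver endothelial markers summed to between 6039 and 7062 CPM per library, against 477 to 555 CPM for the 12 markers of quiescent and 668 to 892 CPM for the 10 of activated stellate cells. Lrat, the retinol-esterifying enzyme that defines stellate cells, had 1.07 to 2.87 CPM. The 17 Kupffer cell and macrophage markers summed to between 615 and 943 CPM. All levels below are therefore those of whole cultures, in which fewer cells of a type and less RNA per cell cannot be told apart.

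Promoters are shown for Il1b and Il1rn, 1 agonist gene and the antagonist gene, whose levels are both highest in the same library, as described further on. They are taken from RefSeq on the build GRCm38.p6, which is older than the GRCm39 build listed for the counts, and end before the outermost annotated start of each gene. Entries were found for 8 of the 9 genes, all but Sigirr. Il1b lies on the minus strand at chr2:129371165-129371389 and Il1rn on the plus strand at chr2:24336610-24336859. Capitals mark matches to the motifs searched.
Il1b: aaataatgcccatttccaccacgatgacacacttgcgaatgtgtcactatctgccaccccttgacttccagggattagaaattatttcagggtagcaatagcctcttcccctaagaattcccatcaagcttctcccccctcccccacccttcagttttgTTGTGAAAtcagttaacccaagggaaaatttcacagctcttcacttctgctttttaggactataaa
Il1rn: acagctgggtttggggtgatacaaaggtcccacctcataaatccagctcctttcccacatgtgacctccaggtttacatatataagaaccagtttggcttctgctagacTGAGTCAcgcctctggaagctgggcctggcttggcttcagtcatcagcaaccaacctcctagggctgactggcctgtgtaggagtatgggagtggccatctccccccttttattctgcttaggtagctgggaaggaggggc
The motifs were searched on both strands. The Il1b stretch held 1 match to a C/EBP-type motif (TTNNGNAA), which 40.7% of 32851 promoter windows of 300 bases also hold. The Il1rn stretch held 1 match to the AP-1 motif (TGANTCA), which 7.81% of those windows hold. Neither stretch matched the NF-kB consensus, held by 4.51% of windows, nor the ETS core AGGAAG, held by 35.4%. The stretches shown have 225 bases (Il1b) and 250 bases (Il1rn) and are thus shorter than the windows behind these shares. The full windows of 300 bases at these starts held the same numbers of matches. Il1a, the other agonist gene, was highest in the same library and is not shown. Its window held 1 C/EBP-type, 1 ETS and 1 AP-1 match and 0 NF-kB matches. Such matches describe letters in these windows only. Il1rn has other annotated starts, with overlapping windows at chr2:24345041-24345340 and chr2:24345121-24345420. Each of these held 0 AP-1 matches and 3 C/EBP-type matches, so the motifs found for Il1rn depend on the start shown. The 3' reads do not tell which start a transcript used.

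The genes fell into 3 tiers of abundance. Averaged over the 6 libraries, Il1rn had 58.4 ± 16.8 CPM and Il1r1 43.1 ± 5.38 CPM (SD, n = 6), above 73.7% and 66.6% of the 12776 tested genes. Il1rap followed with 14.8 ± 3.22 CPM, then Il1b with 7.33 ± 14.4 CPM, Il1a with 7.22 ± 4.73 CPM and Sigirr with 5.97 ± 0.992 CPM. Il33 (0.321 ± 0.372 CPM) and Il1r2 (0.205 ± 0.193 CPM) were near the limit of detection. The ranges over libraries overlapped between all neighbours in this order, except that Il1r1 lay above Il1rap and Sigirr above Il33 in 6 of 6 libraries without overlap. The place of Il1b rests on 1 library, since it lay above Il1a in 1 of 6 libraries only. In the cultures as a whole, the antagonist was thus the most abundant transcript of the family and the decoy receptor among the rarest.

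**Figure D1:**
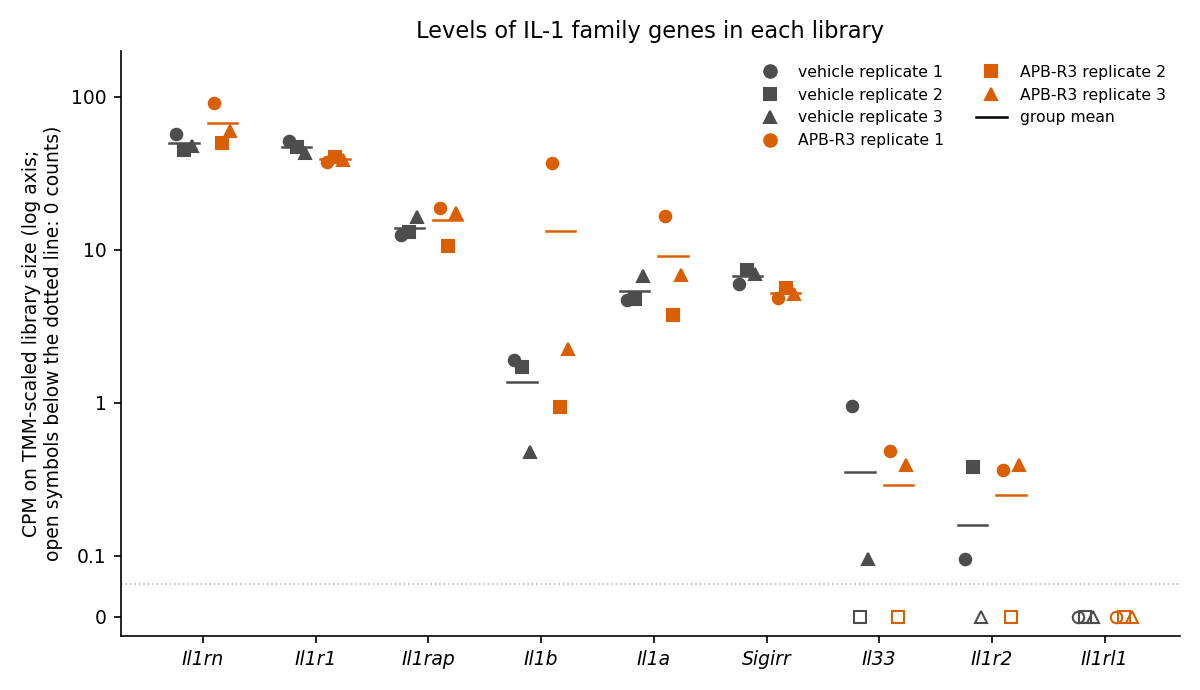
Level of each of the 9 genes in each library, in CPM on a log axis, with vehicle in grey and APB-R3 in orange, a symbol per replicate and a line at each group mean; open symbols below the dotted line are libraries with 0 counts. Il1b and Il1a stand out in APB-R3 replicate 1 (36.7 and 16.5 CPM), whereas Il1r1 and Sigirr lie a little lower in all 3 APB-R3 libraries than in all 3 vehicle libraries.

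Among the ligands, Il1b showed the widest spread between libraries. It had 20, 18 and 5 counts in vehicle replicates 1 to 3, which equal 1.91, 1.72 and 0.474 CPM. With APB-R3 it had 304, 10 and 23 counts, or 36.7, 0.932 and 2.24 CPM. A single library, APB-R3 replicate 1, thus held 80.0% of all Il1b counts, while the other APB-R3 libraries lay at or near the vehicle range. The mean was 1.37 ± 0.782 CPM for vehicle and 13.3 ± 20.3 CPM for APB-R3 (SD, n = 3 each), and the groups overlapped. The log2 fold change was 3.24 (SE 0.84, 95% interval 1.5 to 4.98). It did not pass edgeR's quasi-likelihood test with Benjamini-Hochberg adjustment over the whole table (adjusted p = 0.9998). Without APB-R3 replicate 1 it was 0.21 (SE 0.79). The highest library exceeded the second highest 16.4-fold. Only 3 of the 12776 tested genes (0.0235%) had a highest library at least 5 times the second, and the others, Fgb and Hpx, are hepatocyte plasma protein genes that were high in vehicle replicate 2. Il1b overlaps an antisense gene, Il1bos, which had 0 counts.

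Il1a, the other agonist, had 4.69, 4.78 and 6.73 CPM across vehicle replicates 1 to 3 and 16.5, 3.73 and 6.83 CPM in the APB-R3 libraries. It was again highest in APB-R3 replicate 1, at 2.42 times the next library, and its lowest value was also an APB-R3 library. The group means were 5.40 ± 1.15 and 9.04 ± 6.69 CPM (SD, n = 3 each). The log2 fold change of 0.72 (SE 0.39, interval −0.083 to 1.53) did not pass edgeR's test (adjusted p = 0.9998) and turned to −0.036 without APB-R3 replicate 1. The overlapping antisense gene Gm14023 had 12 counts against the 417 of Il1a, and whether reads were shared between them was not tested.

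Il33, the alarmin ligand, was hardly counted. It had 10, 0 and 1 counts in vehicle and 4, 0 and 4 with APB-R3, which is 19 counts of 60703376, or 0.313 CPM. The exact Poisson interval at 95% reached from 0.188 to 0.489 CPM and covers counting error only. Of its 11 vehicle counts 10 came from replicate 1, and no difference between the groups was detectable at this depth. The gene was below the filter on low counts and was not tested.

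The antagonist gene Il1rn was abundant in every library. It had 57.1, 44.9 and 47.8 CPM across the vehicle replicates and 90.7, 50.1 and 60.1 CPM across APB-R3 replicates 1 to 3. APB-R3 replicate 1 was the highest here too, while APB-R3 replicate 2 lay inside the vehicle range. Means were 49.9 ± 6.41 CPM for vehicle and 67.0 ± 21.2 CPM for APB-R3 (SD, n = 3 each). The log2 fold change was 0.42 (SE 0.16, interval 0.082 to 0.76) and missed the threshold in edgeR (adjusted p = 0.9998). It was 0.14 (SE 0.14) without APB-R3 replicate 1.

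Set against the agonists within each library, the antagonist transcript was in excess throughout. There were 29.9, 26.1 and 100.8 counts of Il1rn per count of Il1b across the vehicle replicates and 2.47, 53.7 and 26.8 across the APB-R3 replicates. The ratio in APB-R3 replicate 1 was the lowest of the 6 libraries, and the other 5 libraries were mixed between the groups. Per count of Il1a there were 12.2, 9.38 and 7.10 counts of Il1rn in vehicle and 5.48, 13.4 and 8.80 in APB-R3. The mean of the ratio to Il1a was 9.55 ± 2.55 for vehicle and 9.24 ± 3.99 for APB-R3 (SD, n = 3 each), a difference smaller than the spread between replicates. These ratios do not depend on how libraries are scaled, and no test was made of them.

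**Figure D2:**
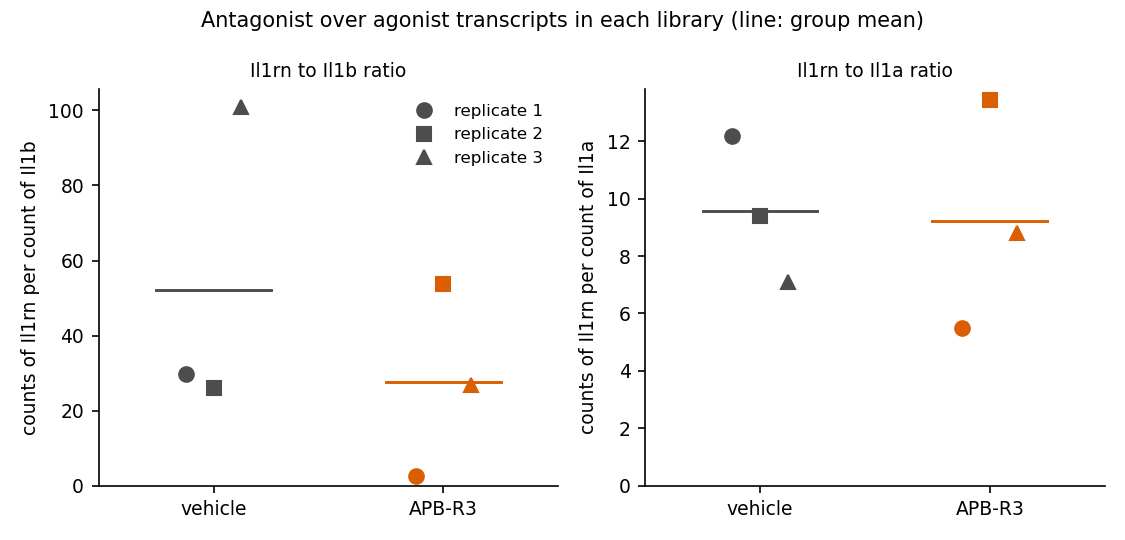
Counts of Il1rn per count of Il1b (left) and of Il1a (right) in each library, by group, on linear axes from 0, with a symbol per replicate and a line at the group mean. In APB-R3 replicate 1 the antagonist exceeded Il1b 2.47-fold, against 26.1-fold to 100.8-fold in the other libraries.

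No receptor gene passed the test, and the values of Il1r1 and Sigirr were lower with APB-R3. Il1r1, the signalling receptor of IL-1, had 51.6, 47.2 and 42.9 CPM across the vehicle replicates and 37.7, 40.6 and 38.5 CPM across the APB-R3 replicates. The groups did not overlap, with each APB-R3 value under the lowest vehicle value, and the APB-R3 libraries lay close together. The means were 47.2 ± 4.32 and 38.9 ± 1.47 CPM (SD, n = 3 each), a log2 fold change of −0.28 (SE 0.12, interval −0.53 to −0.021) that missed the threshold in edgeR (adjusted p = 0.9998). In contrast to the ligands, this value did not rest on APB-R3 replicate 1, being −0.26 without it and between −0.34 and −0.21 with each of the 6 libraries left out in turn.

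Sigirr, the inhibitory receptor, showed the same arrangement at a lower level. It had 5.93, 7.36 and 6.92 CPM with vehicle and 4.83, 5.59 and 5.17 CPM with APB-R3, again without overlap. The log2 fold change was −0.37 (SE 0.29, interval −0.98 to 0.24, adjusted p = 0.9998 in edgeR), with 365 counts over all libraries behind it. Without APB-R3 replicate 1 it was −0.33. Over all tested genes, the groups did not overlap in 8.81% (4.43% with APB-R3 higher and 4.38% with it lower), so the 2 of 6 tested members without overlap are read against that share.

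Il1rap, the accessory chain shared by the IL-1 and IL-33 receptors, had 12.4, 13 and 16.3 CPM with vehicle and 18.8, 10.6 and 17.5 CPM with APB-R3. Both the highest and the lowest of the 6 values were APB-R3 libraries. The log2 fold change of 0.16 (SE 0.22) did not pass (adjusted p = 0.9998 in edgeR) and was 0.010 without APB-R3 replicate 1. There were between 2 and 4.15 counts of Il1r1 per count of Il1rap, with the lowest ratio in APB-R3 replicate 1.

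The decoy receptor and the IL-33 receptor were at or near 0. Il1r2 had 1, 4 and 0 counts in vehicle and 3, 0 and 4 with APB-R3, or 0.198 CPM over all libraries (exact Poisson 95% interval 0.102 to 0.345 CPM). Of 2639 counts of Il1r1 and Il1r2 together, 12 were of Il1r2, a share of 0.455% with an exact 95% binomial interval from 0.235% to 0.793%. Il1rl1 had 0 counts in all 6 libraries, which allows a level of up to 0.0494 CPM (3 counts over all libraries), and its ligand gene Il33 was likewise hardly counted. Both limits cover counting error only. Whether reads of Il1rl1 were assigned elsewhere was not tested. Marker lists of immune cells known for Il1rl1 or Il1r2 were mixed. Of 8 mast cell and basophil markers, 6 were at 0 in all libraries, among them Cpa3 and Mcpt4, while the receptor gene Kit had 249.9 CPM on average and Mcpt8 had 23 counts in all. Of 10 neutrophil markers, 3 were at 0 (Cxcr2, Ly6g and Camp), and S100a8, S100a9 and Ltf had 127, 79 and 62 counts. Of 10 markers of T, NK and innate lymphoid cells, 3 were at 0 (Cd3e, Foxp3 and Ncr1), and Rora, Gata3 and Il7r had 6439, 430 and 383 counts. The part of these cells in the levels of Il1r2 and Il1rl1 was not tested.

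In the comparison of the groups, 0 of the 6 tested members passed edgeR's test at an adjusted p under 0.05, where 0% of all 12776 tested genes did, and neither DESeq2 nor limma-voom called a gene. At an unadjusted p under 0.05 there were 3 members (Il1b and Il1rn higher, Il1r1 lower), against 3.33% of all tested genes. DESeq2 gave no p-value for Il1b, and limma-voom gave it a log2 fold change of 1.59 (adjusted p = 0.999). Without APB-R3 replicate 1, 0 of the 6 members had an unadjusted p under 0.05 in edgeR, against 3.6% of all genes then tested, with 3 members higher and 3 lower.

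**Figure D3:**
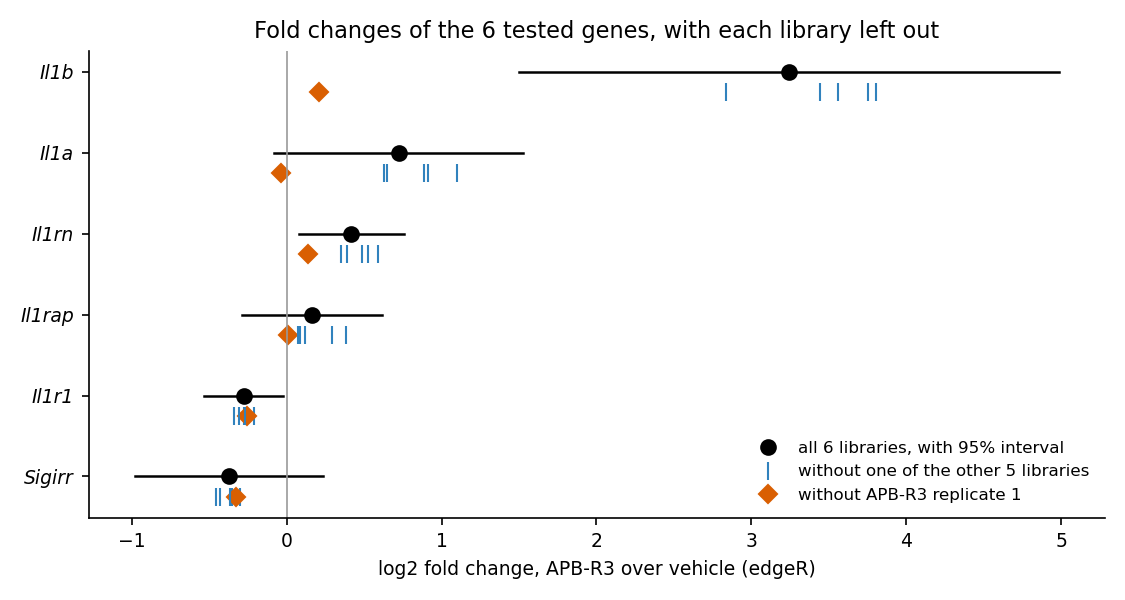
Log2 fold change of APB-R3 over vehicle for the 6 tested genes in edgeR, with the unadjusted 95% interval (black) and, just below, the value with each library left out in turn. The values of Il1b, Il1a, Il1rn and Il1rap move toward or to 0 without APB-R3 replicate 1 (orange diamonds), while those of Il1r1 and Sigirr stay at −0.26 and −0.33.

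The call for Il1b depended on the filter on low counts. With the filter, edgeR gave adjusted p = 0.9998, and with every gene that had a count (20496 genes) it gave 4.55e-17 at the same log2 fold change of 3.24. The estimates behind these p-values differed. With the filter, the prior degrees of freedom, which set how strongly each gene's variability is drawn to the common trend, were 17.6, and the quasi-dispersion of Il1b was 5.68. Without it they were infinite, every gene took the value of the trend, and the quasi-dispersion of Il1b was 0.972, so that its standard error shrank from 0.84 to 0.34. In that fit 20 genes (0.0976%) passed, and Il1b was the only member among them. With neither the filter nor APB-R3 replicate 1, a setting added after the data were seen, Il1b had a log2 fold change of 0.21 and adjusted p = 0.988.

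Other genes of the pathway were read from lists written from general knowledge, with earlier results of these data known. Of 8 further IL-1 family genes, those of IL-36 and the accessory-protein-like receptors, only Il1rl2, the IL-36 receptor, passed the filter. It had 11.4, 11.2 and 9.67 CPM with vehicle and 5.44, 9.51 and 11.0 CPM with APB-R3, with its lowest value in APB-R3 replicate 1. Of these 8, 5 were at 0 in all libraries (Il36b, Il36rn, Il1f10, Il1rapl1 and Il1rapl2). The IL-36 agonist genes Il36a, Il36b and Il36g had 4, 0 and 9 counts over all libraries, so agonist transcripts for the IL-36 receptor were hardly counted.

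Between receptor and nucleus, no gene passed the test. Of the 29 signal transduction genes, all tested, 0 passed at an adjusted or unadjusted p under 0.05, 14 were higher and 15 lower, and the median log2 fold change was −0.0039, beside 0.0032 for all tested genes. The groups did not overlap in 3 of the 29 (Traf6, Map2k4 and Map2k6, all lower with APB-R3), against 4.38% of all tested genes with APB-R3 lower. Myd88, the adaptor, had 28.5 ± 1.38 CPM for vehicle and 29.1 ± 5.13 CPM for APB-R3 (SD, n = 3 each), and the kinase gene Irak4 had 39.4 ± 1.29 and 38.3 ± 1.92 CPM. Irak3, which restrains this pathway, had 14.6 ± 0.715 and 15.6 ± 2.33 CPM. Among the 9 tested genes of IL-1 processing and release, 6 were higher and 3 lower (median 0.014), and none passed at either threshold. Casp1, the protease that matures IL-1 beta, had 54.3 ± 3.40 and 57.3 ± 5.40 CPM, and the library that was high in Il1b had 52.3 CPM of it.

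Known response genes of IL-1 were mostly highest in the library that was high in Il1b. Of the 28 tested response genes, 0 passed after adjustment over all genes. At an unadjusted p under 0.05, 12 were higher and 1, Saa3, lower, against 1.75% and 1.57% of all tested genes, and the median log2 fold change was 0.28. The list was written with earlier results of these data known, so this comparison of shares is a description and no independent test. Without APB-R3 replicate 1, 4 response genes were higher and 2 lower at an unadjusted p under 0.05. The share of all genes then tested was 3.6% in either direction, and the median of the response genes was −0.033. The groups did not overlap in 4 of the 28 with APB-R3 higher (Nfkbiz, Ptgs2, Mmp3 and Mmp9), against 4.43% of all tested genes. They did not overlap in 1 with APB-R3 lower (Saa3), against 4.38%. The log2 fold changes of Ptgs2, Mmp3, Mmp9 and Saa3 were 0.53, 0.53, 0.84 and −1.14. Without APB-R3 replicate 1 they were 0.47, 0.50, 0.62 and −1.13. The chemokine gene Cxcl2 had 59.6, 45.0 and 38.9 CPM with vehicle and 261.9, 46.2 and 49.2 CPM with APB-R3, so its groups overlapped outside replicate 1. Cxcl1, a related neutrophil chemokine gene, had 43.2, 28.0 and 24.5 CPM with vehicle and 100.02, 33.5 and 25.7 CPM with APB-R3. Il6, the acute-phase cytokine gene, had 2.01, 2.01 and 2.37 CPM and then 5.44, 1.96 and 5.27 CPM, high in 2 of the 3 APB-R3 libraries. Nfkbiz, an NF-kB cofactor induced by IL-1, had 87.5, 83.2 and 84.6 CPM with vehicle and 117, 104 and 99.2 CPM with APB-R3 without overlap, and its log2 fold change of 0.33 (SE 0.10) was 0.26 without replicate 1. Ccl2 and Nfkbia were the most abundant of the list at 1425 ± 192 and 922 ± 151 CPM (SD, n = 6), both highest in APB-R3 replicate 1 at 1769 and 1213 CPM.

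**Figure D4:**
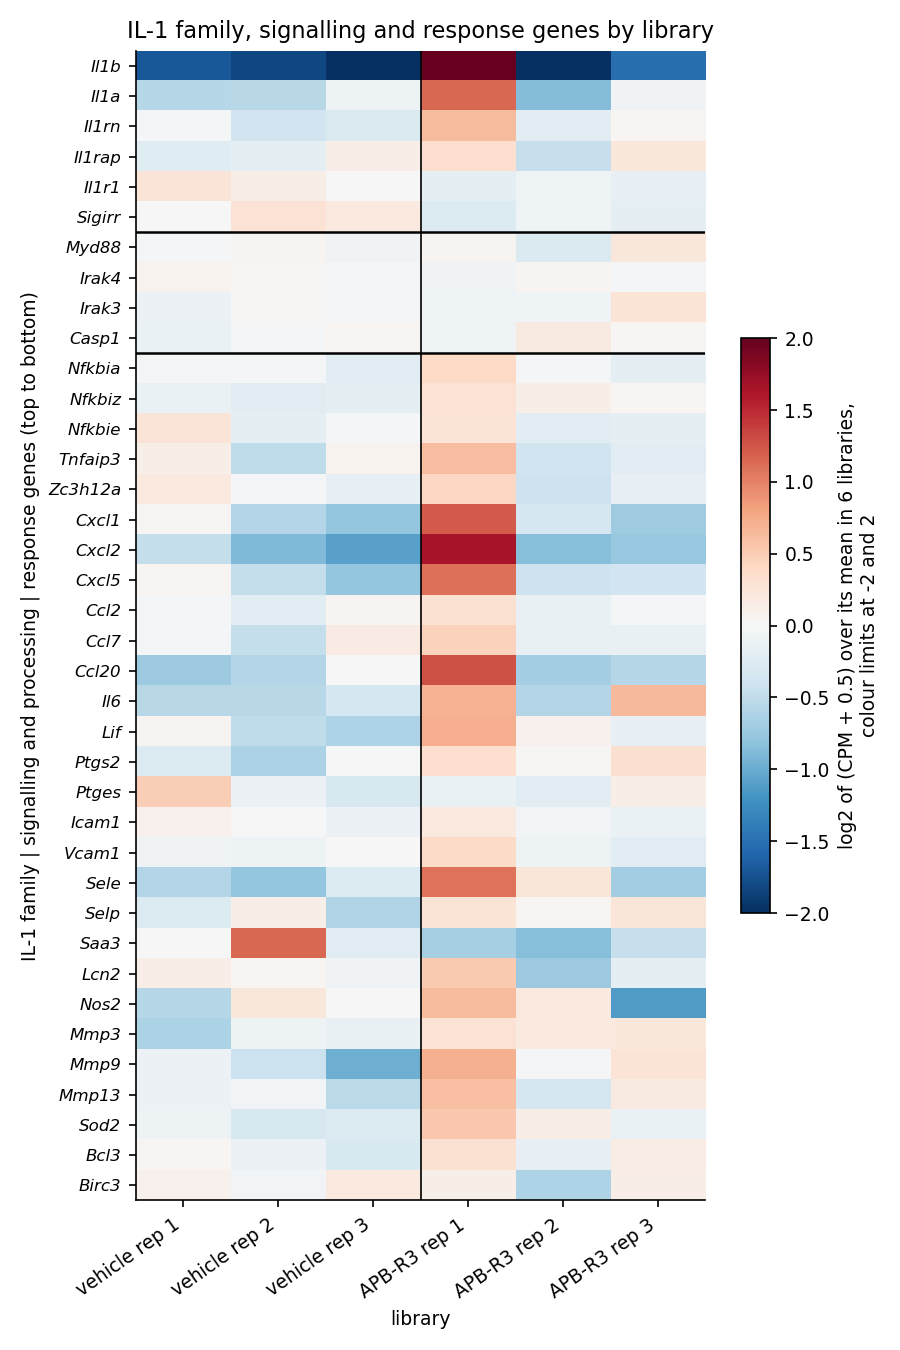
Level of each tested gene in each library relative to its mean over the 6 libraries, as log2 of (CPM + 0.5) over that mean, with colour limits at −2 and 2; from top to bottom the 6 IL-1 family genes, 4 signalling and processing genes and 28 response genes. The column of APB-R3 replicate 1 is red for most response genes and for Il1b, Il1a and Il1rn, and pale for Myd88, Irak4, Irak3 and Casp1.

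The library in which a gene was highest was therefore counted for each list, a description added after the data were seen. APB-R3 replicate 1 was the highest library for 25 of the 28 response genes and for 4 of the 6 tested members, against 20.3% of all tested genes. This library was singled out because Il1b was highest in it. Since Il1b is among those 4 members, their share was not independent of that choice. APB-R3 replicate 1 was the highest for 6 of the 29 signal transduction genes. The Kupffer cell and macrophage markers were arranged differently. Of their 16 tested genes, 15 were highest in APB-R3 replicate 3 (15.8% of all tested genes) and 0 in APB-R3 replicate 1. Their sum was 701 CPM in APB-R3 replicate 1, 683 and 943 CPM in APB-R3 replicates 2 and 3, and 615 to 835 CPM in vehicle. Neutrophil markers summed to 5.31 CPM in that library, between 2.84 and 11.8 CPM in the others, with 3 of 10 at 0 throughout. The library with the high ligand levels was thus the highest of the 6 for neither sum, and it lay above 2 other libraries in the macrophage sum and above 3 in the neutrophil sum. It had the smallest total count of the 6. The part of these cells and of depth in the ligand levels was not tested.

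**Figure D5:**
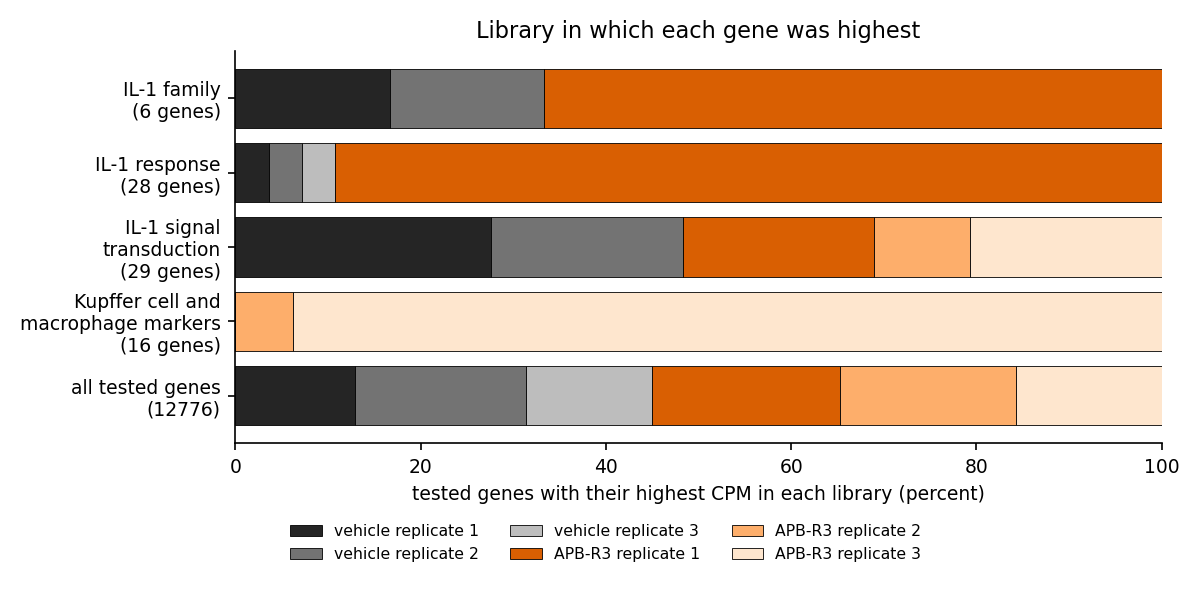
Share of the tested genes of each list, in percent, that had their highest CPM in each library, with vehicle libraries in greys and APB-R3 libraries in oranges; the bottom bar is all 12776 tested genes. APB-R3 replicate 1 takes 25 of 28 response genes and 4 of 6 IL-1 family genes, and APB-R3 replicate 3 takes 15 of 16 macrophage markers.

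Finally, genes with the library pattern most like that of 3 members were sought among 9709 named genes with at least 5 CPM on average, by Pearson's r of log2 CPM over the 6 libraries, which all share these libraries and so are a description only. For Il1b these were Eif2ak2, the double-stranded RNA-activated kinase gene (r = 0.994), Ecm1 (0.990) and Decr1 (0.988). Their span was far smaller, with Eif2ak2 at 23.1 CPM in APB-R3 replicate 1 and 20.7 to 21.5 CPM elsewhere. Nearest to Il1rn were Homez (0.982), Ndufaf3 (0.982) and Glt8d1 (0.976). Nearest to Il1r1 were Mettl27 (0.993), Ranbp3 (0.992) and Postn, a matrix protein gene of activated fibroblasts (0.987). Postn had 14.6, 11.1 and 9.29 CPM with vehicle and 7.49, 8.86 and 8.0 CPM with APB-R3. These genes were picked as the highest of 9709 values of r each. Without the library where the member was highest, r was 0.963, 0.909 and 0.907 for the genes named for Il1b, in that order. It was 0.983, 0.897 and 0.867 for those of Il1rn, and 0.984, 0.988 and 0.991 for those of Il1r1. The libraries behind these values also served to pick the genes, so the values are no separate check. Outside APB-R3 replicate 1, Il1b had only 5 to 23 counts per library.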

How the data were processed

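Per the submitters' processing notes, reads were handled with bcl2fastq 2.20.0.422, fastp, STAR and HTSeq on GRCm39. The sources used here do not give options, annotation release, strand setting or use of molecular identifiers, so antisense reads may be included and counts may not be independent molecules. Per the labels' protocols, Lexogen Quant-Seq libraries were made from 500 ng of total RNA. The deposited values are raw whole-number counts per gene symbol. Headers inside the files carry other replicate numbers than the titles, and the titles were used.

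All genes were fitted in edgeR 4.0.16 (R 4.3.3) with filterByExpr (minimum count 10, minimum total 15), TMM factors and glmQLFit with glmQLFTest at their defaults, treatment being the only term. Adjusted p-values are Benjamini-Hochberg values over all 12776 tested genes, two-sided, threshold 0.05. Standard errors divide the log2 fold change by the root of F. Alternatives were DESeq2 1.42.0, limma-voom (limma 3.58.1), other scalings and filters, other quasi-likelihood estimates, a replicate block and each library left out. The counts of any 2 libraries differed by more than sampling noise (chi-square per degree of freedom 5.54 to 13.6).

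The members and gene lists were chosen with earlier results of these data known. The named genes are the 9 members, 10 pathway genes fixed by role, abundant or absent markers, and the 3 genes most like Il1b, Il1rn and Il1r1 (Il33, also in that rule, was below the filter). All others were named after their values were seen: Il1rl2, the IL-36 genes, Il1f10, Il1rapl1, Il1rapl2, Il1bos, Gm14023, Traf6, Map2k4, Map2k6, Saa3, Ptgs2, Mmp3, Mmp9, Ptges, Birc3, Fgb, Hpx and Lrat.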

Additional observations from a re-analysis of the deposited data

How the results depend on the processing

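All 6 tested members kept their direction and their side of the threshold under each alternative that could be fitted, except that Il1a turned to −0.036 without APB-R3 replicate 1 (range with 1 library left out −0.036 to 1.10), and to −0.038 with no filter as well, and that Il1b passed with no low-count filter (3.24). Il1b did not pass the filter of 5 CPM in 3 libraries, and DESeq2 gave it no adjusted p. The number of genes called was 20 with no low-count filter, of which 1 was a member, 12 with neither the filter nor APB-R3 replicate 1, and 0 to 1 with each library left out. The median of the IL-1 response genes ran from −0.033 to 0.38 with each library left out and was −0.035 without the filter and APB-R3 replicate 1. A replicate block called 0 genes, and Il1b had 2.31 with adjusted p = 0.0781 in edgeR. Whether same-numbered libraries were paired is not stated. Their deviations correlated at 0.022 to 0.048 over genes, too weakly to be treated as pairs here, although each library correlated best with its own number. Depth limits Il33, Il1r2 and Il1rl1, which were below the filter.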

Other observations

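A pair of hepatocyte genes shared with Il1b the property of being set by 1 library. Fgb, a fibrinogen chain gene, was 19.2 times and Hpx, the hemopexin gene, 16.8 times higher in vehicle replicate 2 than in the next library. The 10 hepatocyte markers summed to 95.6 CPM there and to between 6.40 and 14.7 CPM in the other 5 libraries. The acute-phase gene Saa3, an IL-1 response gene by its list, was also highest in that library, but was not set by it alone. It had 12.4, 27.9 and 10.6 CPM with vehicle and 7.61, 6.62 and 8.88 CPM with APB-R3, without overlap. Its log2 fold change was −1.14 (SE 0.29, adjusted p = 0.9998 in edgeR). At 7.61 CPM in APB-R3 replicate 1, Saa3 did not share the pattern of Il1b. Ptges, a prostaglandin synthase gene, and Birc3, an inhibitor of apoptosis gene, were the other tested response genes whose highest level was outside APB-R3 replicate 1.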
